A study of Zingiber officinale with 6 samples.

Results

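The genes described here were already expressed in the leaf blades of every control ginger sample and were strongly raised, to a high level, in every sample exposed to the volatile organic compounds of Pythium oligandrum (Po-VOCs). They were chosen from the deposited table of FPKM, which scales the fragments of a gene by its length and by the depth of the library. A gene entered when the lowest of the 3 exposed samples had at least 10 FPKM and at least 4 times the highest of the 3 control samples, and when the lowest control sample had at least 0.5 FPKM. Of the 55601 genes in the table, 41 (0.0737%) met these thresholds. Of these, LOC122030586, LOC121984891 and LOC121994172 were left out by name, which left 38 genes. The same 6 libraries chose the genes, so every difference between the groups given for these 38 genes is a description of what the choice picked out and not a test.

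Ginger plants of the Laiwu variety were grown for 21 days in pots with a pierced base, each sealed onto a glass jar of V8 agar. The jar held growing P. oligandrum strain GAQ1 for the exposed plants and only the medium for the control plants, so air from the jar reached the roots, and RNA came from the blades of the uppermost leaf pair. A stranded mRNA library was made from each of 3 exposed and 3 control samples, described as biological replicates, and whether a sample held leaves of a single plant or of several was not stated. The exposure was to the whole mixture of volatiles at a single time point. Total counts were 13695463 to 14662442 per library, and samples of a group differed by 17.5 to 37.1 times the sampling noise of their counts (chi-square per degree of freedom). In bulk leaf tissue, more RNA per cell and more cells of a type cannot be told apart. The product names used here cover only part of the genes, so the leaf label was not checked against nuclear leaf markers.

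Leaf growth depends on cell walls that yield to the pressure of the cell. Expansins loosen the bonds between wall polymers without cutting them, and xyloglucan endotransglucosylases cut and rejoin the xyloglucan chains that tie cellulose together. Auxin is a hormone that drives such expansion, and genes of its AUX/IAA repressors are themselves among its early targets. Jasmonate is a hormone of wounding and defense whose responses are carried largely by the transcription factor MYC2.

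Together the 38 genes took 1681, 3600 and 3372 counts in control replicates 1, 2 and 3 and 34722, 34945 and 39736 counts in Po-VOCs replicates 1, 2 and 3. The median of the 38 genes was 1.87, 2.72 and 2.63 FPKM in the control samples and 27.6, 25.5 and 30.9 FPKM in the exposed samples. Mean expression of single genes ran from 1.05 to 19.0 FPKM in control samples and from 11.5 to 237 FPKM in exposed samples. The fitted log2 fold changes from edgeR ranged from 2.75 to 5.96 with a median of 3.55, while the median over all 41508 genes tested was 0.01. All 38 genes passed the filter on low counts and were among the upregulated genes in edgeR's quasi-likelihood test (adjusted p below 0.05 over all genes, a log2 fold change above 1 and a mean above 1 FPKM in exposed samples), where 1.09% of the genes tested were upregulated and 1.02% downregulated. DESeq2 also called all 38, against a background of 3.57%. Since the rule used this contrast, nothing is read from these counts. By edgeR, without control replicate 1 the test called 25 of the 38 and without control replicate 2 it called 1. Without Po-VOCs replicate 2 it called 11 and without Po-VOCs replicate 3 it called 9. In these fits the number over all genes fell from 452 to 54, 1, 25 and 28. Without control replicate 3 the test called 35 of the 38 and 421 genes over all. Without Po-VOCs replicate 1 it called 37 of the 38 and 969 over all. The lowest fitted log2 fold change among the 38 genes in any of these fits was 2.29.

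**Figure D1:**
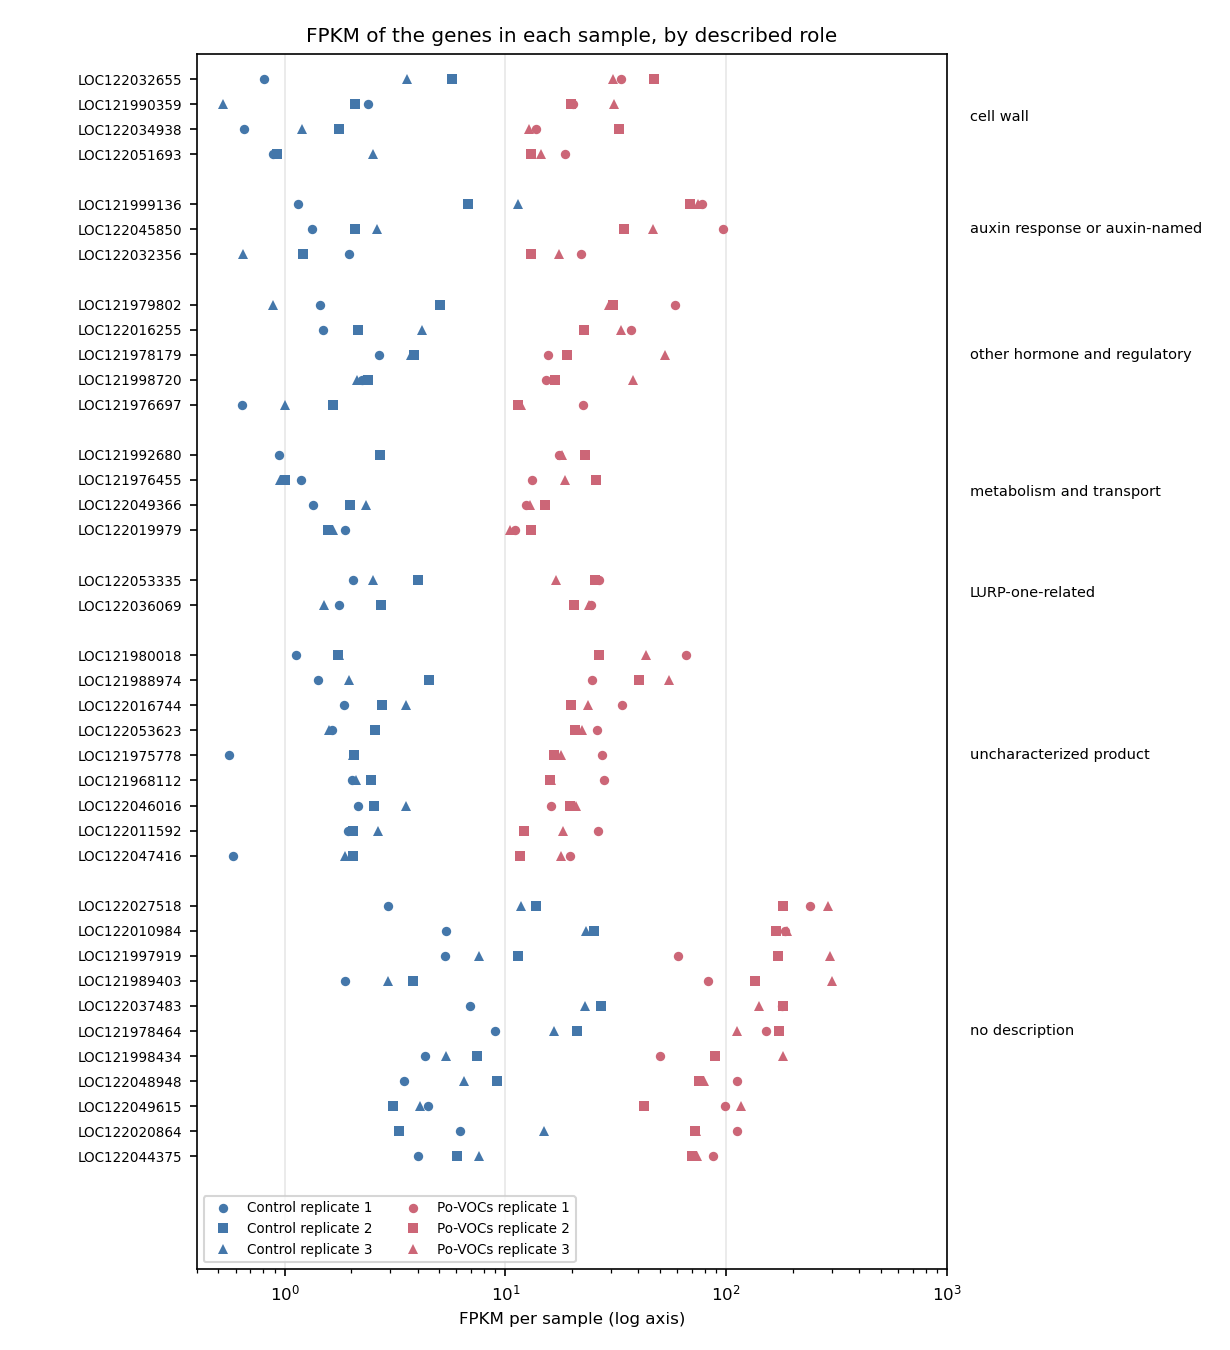
FPKM of each of the 38 genes (rows) in each sample on a log axis, blue for control and red for Po-VOC-exposed samples, with 1 symbol per replicate and the genes grouped by described role. The red symbols lie to the right of the blue ones in every row, as the rule requires, and the 11 genes without a description reach the highest levels, 76.8 to 237 FPKM on average in exposed samples.

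Coordinates are 1-based positions in RefSeq's annotation of the Zo_v1.1 assembly. Product names listed by the study were held for 27 of the 38 genes. The 11 others are those with the highest levels, because the held names stop at a mean of 73.8 FPKM in exposed samples. All 38 are annotated as protein coding. The named genes were grouped by role, and the roles given below are background from other plants.

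Of the named genes, 4 act on the cell wall. LOC122032655, an expansin-A4-like gene on chromosome 11A (16429864 to 16431272), had 0.803, 5.74 and 3.59 FPKM in control samples and 33.5, 47.3 and 30.8 FPKM in exposed samples, a log2 fold change of 3.46 (standard error 0.58). The other expansin-A4-like gene, LOC122034938 on chromosome 11B (12146605 to 12148080), had 0.655, 1.77 and 1.19 FPKM against 13.8, 32.6 and 12.8 FPKM, a change of 4.02 (standard error 0.50). In each of these A-type expansin genes control replicate 1 was the lowest sample and Po-VOCs replicate 2 the highest. LOC121990359, expansin-B15-like, on chromosome 6B (83469615 to 83470929), belongs to the B-type expansins, which are best known from grasses. It had 2.39, 2.08 and 0.527 FPKM in control samples and 20.3, 19.8 and 31.0 FPKM in exposed samples, and here control replicate 3, with 8 counts, was the lowest. The remaining wall gene, LOC122051693 on chromosome 3A (33611624 to 33613127), is a probable xyloglucan endotransglucosylase/hydrolase protein 8. It had 0.884, 0.921 and 2.52 FPKM against 18.5, 13.1 and 14.5 FPKM, a log2 fold change of 3.40 (standard error 0.41), and its highest exposed sample was 1.42 times the lowest where its highest control sample was 2.85 times the lowest. Across these 4 genes the exposed means lay between 15.3 and 37.2 FPKM.

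An AUX/IAA domain was listed for LOC121999136 and LOC122032356, and the product name of LOC122045850 refers to auxin induction. AUX/IAA proteins repress auxin response genes until auxin triggers their degradation. LOC121999136 (auxin-induced protein 22D-like, chromosome 1B, 130686052 to 130687384) had the highest level among the named genes, with 1.15, 6.76 and 11.4 FPKM in control samples and 77.9, 68.5 and 74.8 FPKM in exposed samples. The control samples of this gene spread 9.93-fold, the widest control range of the 38, while the exposed samples stayed within a range of 1.14-fold. LOC122032356 (auxin-responsive protein IAA20-like, chromosome 11A, 94963411 to 94964586) had 1.96, 1.21 and 0.648 FPKM against 22.0, 13.0 and 17.5 FPKM and a log2 fold change of 3.75 (standard error 0.42). Its control values rest on 53 counts in all 3 samples together, the fewest of any of the 38 genes. LOC122045850 (auxin-induced protein 5NG4-like, chromosome 2B, 71578189 to 71579842) carries an EamA-like transporter domain, a membrane transporter fold, and no AUX/IAA domain. It had 1.32, 2.08 and 2.63 FPKM in control samples and 97.1, 34.6 and 46.6 FPKM in exposed samples, a log2 fold change of 4.85 (standard error 0.44), the highest among the named genes with a described function. Its annotated span overlaps that of LOC122045851, so reads of the overlap may belong to either gene.

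The other hormone and regulatory genes were 5. LOC121979802 (cytokinin dehydrogenase 5-like, chromosome 5A, 93079743 to 93082267) encodes an enzyme that breaks down cytokinins, the hormones of cell division. It had 1.44, 5.04 and 0.890 FPKM in control samples and 58.7, 30.6 and 29.5 FPKM in exposed samples, with the highest control sample at 5.04 and the lowest exposed sample at 29.5 FPKM. LOC122016255 (transcription factor MYC2-like, chromosome 8B, 17548667 to 17550624) had 1.49, 2.14 and 4.19 FPKM against 37.0, 22.6 and 33.5 FPKM, a log2 fold change of 3.58 (standard error 0.40). Another transcription factor gene, LOC121998720 (ethylene-responsive transcription factor ERF003-like, chromosome 6A, 149574464 to 149575307), has the AP2 DNA-binding domain. Its control samples were close together at 2.24, 2.39 and 2.13 FPKM, while the exposed samples had 15.3, 16.8 and 37.6 FPKM, so Po-VOCs replicate 3 stood well above the others. The same sample stood out in LOC121978179 (probable BOI-related E3 ubiquitin-protein ligase 3, chromosome 1B, 90869376 to 90870434), with 2.67, 3.85 and 3.74 FPKM in control and 15.5, 18.9 and 52.7 FPKM in exposed samples. BOI proteins are ubiquitin ligases that restrain cell death after fungal attack in Arabidopsis. LOC121976697 (BTB/POZ domain-containing protein At1g67900-like, chromosome 4B, 129506496 to 129508782) has the NPH3 domain, named after a protein of light-directed bending in Arabidopsis. It had 0.638, 1.65 and 1.00 FPKM against 22.5, 11.3 and 11.7 FPKM, with Po-VOCs replicate 1 the highest. The spans of LOC121998720 and LOC121976697 overlap those of LOC121998719 and LOC121978675.

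Genes of metabolism and transport numbered 4 and had lower levels, with exposed means of 11.5 to 19.5 FPKM. LOC122019979 on chromosome 9A (102719782 to 102724833) encodes a beta-fructofuranosidase, insoluble isoenzyme 3-like, an invertase of the kind that is bound to the cell wall and splits sucrose outside the cell. It had 1.87, 1.58 and 1.66 FPKM in control samples and 11.0, 13.0 and 10.5 FPKM in exposed samples. This gene had the smallest fitted change of the 38, a log2 fold change of 2.75, and also the smallest standard error, 0.18. LOC121992680 (phosphomethylethanolamine N-methyltransferase-like, chromosome 6B, 72229660 to 72235206) belongs to the enzymes that methylate phosphoethanolamine on the way to choline, a building block of membranes. It had 0.943, 2.70 and 2.70 FPKM against 17.5, 22.9 and 18.1 FPKM. LOC121976455 (probable metal-nicotianamine transporter YSL12, chromosome 4B, 124852331 to 124855013) is of a family that carries metals bound to nicotianamine across membranes, best described in grasses and Arabidopsis. Its control level, 1.18, 1.01 and 0.957 FPKM, was the lowest of the 38 by its mean, and the exposed samples had 13.2, 25.6 and 18.6 FPKM, a log2 fold change of 4.19 (standard error 0.33). LOC122049366 (carboxyvinyl-carboxyphosphonate phosphorylmutase, chloroplastic-like, chromosome 1B, 8802727 to 8805196) had 1.35, 1.99 and 2.34 FPKM against 12.4, 15.1 and 12.9 FPKM.

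LURP-one-related proteins take their name from an Arabidopsis gene that is induced late in infection by an oomycete and is needed for basal defense against it. The product name protein LURP-one-related 8-like is shared by LOC122053335 on chromosome 3A (164312124 to 164313108) and LOC122036069, which is on a sequence not placed on a chromosome (157899 to 158908). LOC122053335 had 2.04, 4.01 and 2.52 FPKM in control and 26.5, 25.4 and 16.9 FPKM in exposed samples. LOC122036069 had 1.75, 2.74 and 1.50 FPKM against 24.3, 20.4 and 23.9 FPKM. Both genes were highest in control replicate 2 among the control samples, and their exposed means were alike at 22.9 FPKM, with SDs of 5.25 and 2.17 (n = 3 each).

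The 9 genes listed as uncharacterized proteins had exposed means of 16.3 to 45.2 FPKM and log2 fold changes of 2.79 to 4.84. The highest was LOC121980018 (chromosome 1B, 96442182 to 96443350), at 1.13, 1.74 and 1.76 FPKM in control samples and 65.5, 26.6 and 43.5 FPKM in exposed samples. LOC121975778 (chromosome 1B, 120177622 to 120180089) carries a methyladenine glycosylase domain, known from enzymes that remove damaged adenine from DNA, and had 0.559, 2.06 and 2.03 FPKM against 27.2, 16.5 and 17.8 FPKM. LOC121988974 was the only one of the 9 with over 2 times as much in Po-VOCs replicate 3 as in Po-VOCs replicate 1, and its span overlaps that of LOC121988972.

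The 11 genes without a held name included the largest change and the highest levels of the 38. LOC122027518 on chromosome 10A (1433246 to 1434270) had 2.94, 13.7 and 11.8 FPKM in control samples and 239.7, 181 and 289 FPKM in exposed samples. Its mean of 237 FPKM placed it at rank 301 of the 55601 genes in exposed samples, the highest rank of the 38. LOC122010984 on chromosome 1A (147744338 to 147745585) had 5.37, 25.2 and 23.1 FPKM against 185, 168 and 187 FPKM, with control replicate 1 far below the other control samples. LOC121997919 on chromosome 6A (125007036 to 125008350) had 5.29, 11.4 and 7.62 FPKM in control and 60.6, 172 and 295 FPKM in exposed samples. Its exposed samples spread 4.86-fold, the widest exposed range of the 38, and its span overlaps that of LOC121997918. The largest fitted change was that of LOC121989403 on chromosome 1B (1972836 to 1973750), from 1.87, 3.82 and 2.94 FPKM to 82.6, 135 and 300.1 FPKM, a log2 fold change of 5.96 (standard error 0.65). The other genes without a held name had exposed means of 76.8 to 166 FPKM.

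At the edge of the rule, the members closest to 10 FPKM in their lowest exposed sample were LOC122019979 at 10.5, LOC121976697 at 11.3 and LOC122047416 at 11.6 FPKM. Just outside were LOC122030876 (zinc finger protein AZF3-like) at 9.94, LOC122053217 (bZIP transcription factor 44-like) at 8.84 and LOC121970477 at 8.73 FPKM. For the ratio of the lowest exposed to the highest control sample, LOC121978179 at 4.03, LOC122053335 at 4.22 and LOC122046016 at 4.56 were just inside. LOC121972208 (zinc finger protein 6-like) at 3.97, LOC122025567 (BOI-related E3 ubiquitin-protein ligase 1-like) at 3.94 and LOC121991477 at 3.92 were just outside, so BOI-related genes lay on either side of this threshold. For the lowest control sample, LOC121990359 at 0.527, LOC121975778 at 0.559 and LOC122047416 at 0.585 FPKM were inside, and LOC122033442 (23 kDa jasmonate-induced protein-like) at 0.499, LOC122007874 (transcription factor MYC2-like) at 0.472 and LOC121984431 at 0.426 FPKM were outside. The threshold of 4-fold did most of the selecting, since 10486 genes met the others and 0.391% of these reached it.

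**Figure D2:**
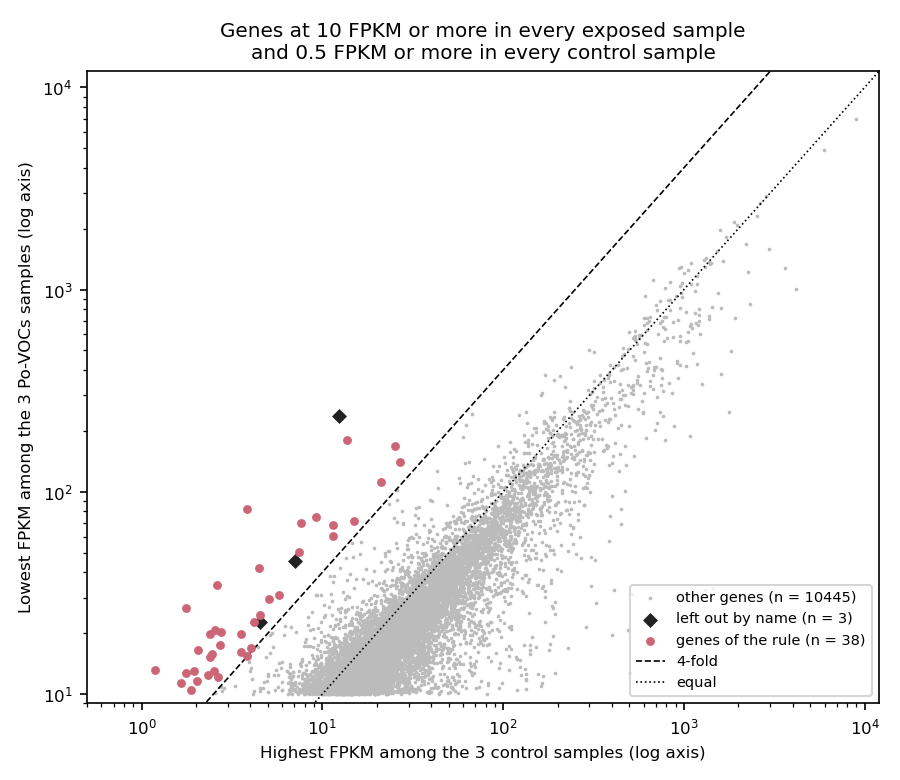
Highest control FPKM against lowest Po-VOCs FPKM, both on log axes, for the 10486 genes with at least 10 FPKM in every exposed sample and 0.5 FPKM in every control sample. The 38 genes (red) lie above the dashed 4-fold line together with the 3 genes left out by name (black), and most other genes (grey) lie near the dotted line of equal values.

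The chromosomes of the ginger assembly come in lettered pairs, 1A and 1B to 11A and 11B. Along each pair, protein-coding genes were matched in their order by span length and number of annotated proteins, without using expression values or sequence. The alignment gave 14229 gene pairs. Product names other than uncharacterized protein were held for both genes in 167 of these pairs. In 151 of the 167 the names were the same once isoform labels and the ending -like were set aside. The held names are all of genes listed as upregulated, so the other pairs were not checked in this way. Of the 38 genes, 20 had an aligned gene on the matching chromosome, and for 10 of these the aligned gene was itself one of the 38, so that they form 5 pairs. The pairs are LOC121989403 with LOC121998434, LOC122037483 with LOC121978464, LOC122048948 with LOC122044375, LOC122016744 with LOC122011592, and LOC122053623 with LOC121968112. LOC122016744, LOC122011592, LOC122053623 and LOC121968112 are listed as uncharacterized proteins, and for the other genes of these pairs no product name was held. Whether aligned genes are alleles of the same locus or separate genes was not checked, so the 38 genes may stand for fewer loci. If the genes of a pair are near-identical, their reads may have been split or dropped in counting, so levels within a pair are uncertain.

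The pairs differed in level. LOC122037483 (chromosome 1A, 144970417 to 144972582) had 6.90, 27.0 and 23.0 FPKM in control and 178, 181 and 141 FPKM in exposed samples, and LOC121978464 (chromosome 1B, 128284650 to 128286834) had 8.93, 21.1 and 16.6 FPKM against 151, 173 and 112 FPKM. LOC122048948 (chromosome 2B, 4584062 to 4585445) had 3.45, 9.20 and 6.47 FPKM against 112, 75.1 and 79.6 FPKM. Its aligned gene LOC122044375 (chromosome 2A, 5709762 to 5711153) had 4.01, 6.03 and 7.58 FPKM against 86.7, 70.2 and 73.4 FPKM. In both of these pairs the samples came in nearly the same order, with control replicate 1 lowest. LOC121998434 (chromosome 1A, 1144967 to 1145870), the aligned gene of LOC121989403, had 4.34, 7.42 and 5.40 FPKM in control samples and 50.3, 89.0 and 182 FPKM in exposed samples. Its log2 fold change was 4.27 (standard error 0.57) beside the 5.96 (standard error 0.65) of LOC121989403, and both genes were highest in Po-VOCs replicate 3. The same exposed sample was highest in both genes in 5 of the 5 pairs, where 74.8% of 2268 other aligned pairs at these expression levels share it, but with TMM-scaled FPKM it was so in 3 of the 5. The lowest control sample was shared in 4 of the 5 pairs, and in 68.0% of the other pairs. TMM factors correct each library for the share that its most abundant genes take.

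For the 10 members whose aligned gene was not one of the 38, 9 aligned genes had enough counts for the test. All 9 had a positive log2 fold change, from 1.50 to 5.25 with a median of 3.14, and in all 9 every exposed sample lay above every control sample, as in 14.5% of all genes tested. The quasi-likelihood test called 5 of the 9 upregulated, against 1.09% of all genes tested, and 1 of these, LOC122030586, itself met the thresholds and was left out by name. DESeq2 called all 9, edgeR with a stricter limit on the span difference had 6 such genes and called 2, and edgeR called 2 of the 9 without control replicate 1 or without Po-VOCs replicate 3, 1 without Po-VOCs replicate 2 and 0 without control replicate 2, where all 9 kept an unadjusted p below 0.05. The aligned genes were reached through members chosen for being raised and may share reads with them. The counts of calls and of positive changes are therefore not independent evidence, and nothing is read from them. In the 6 cases in which both genes had a name, the names matched apart from isoform labels.

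For the transporter and invertase members, the aligned gene had the higher control level. LOC121971212 (YSL12, chromosome 4A, 130581946 to 130584790) had 7.90, 8.30 and 6.55 FPKM in control samples and 39.8, 38.0 and 21.9 FPKM in exposed samples, so it was higher than LOC121976455 in every control sample and its log2 fold change was 2.10 (standard error 0.24) beside 4.19. LOC122023593 (the invertase on chromosome 9B, 91715902 to 91720655) had 5.76, 4.43 and 5.34 FPKM against 14.2, 18.7 and 16.1 FPKM, a log2 fold change of 1.66 (standard error 0.21) beside the 2.75 of LOC122019979. Both of these aligned genes were called upregulated by edgeR. LOC122007874 (MYC2-like, chromosome 8A, 20643033 to 20644993) went the other way. It had 0.472, 0.606 and 1.01 FPKM in control and 27.9, 18.6 and 30.9 FPKM in exposed samples, a log2 fold change of 5.21 (standard error 0.36), and it was called upregulated by edgeR but missed the rule on its lowest control sample. The exposed levels of the MYC2-like genes were close, at 25.8 ± 6.39 and 31.0 ± 7.48 FPKM (SD, n = 3 each), while the control means were 0.696 and 2.61 FPKM. The difference in fold change between aligned genes was not tested, since the member of each pair was chosen on these values.

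LOC122035015 (expansin-A4-like, chromosome 11B, 12444377 to 12445732) is the aligned gene of LOC122032655 and was called by DESeq2 but not by edgeR, as were the next 3 genes. It had 1.14, 14.5 and 6.05 FPKM in control and 62.5, 73.4 and 56.0 FPKM in exposed samples, and its standard error of 0.73 reflects the wide spread of the control samples. LOC121996639, aligned to the methyltransferase gene LOC121992680, had 2.34, 5.07 and 6.44 FPKM against 11.4, 15.1 and 12.5 FPKM and a log2 fold change of 1.50 (standard error 0.35), and LOC121970927, aligned to the BTB/POZ gene LOC121976697, had one of 2.37 (standard error 0.53), neither of them called by edgeR. LOC122040241 (chromosome 2A, 164209790 to 164210312) was also not called by edgeR, with 0.342, 1.01 and 2.38 FPKM in control and 21.9, 6.87 and 11.3 FPKM in exposed samples. It is listed as transcription factor ILI5-like, a small helix-loop-helix protein of a family that promotes cell elongation in rice, and is aligned to LOC122049615 (chromosome 2B, 142200487 to 142201023), for which no name was held. LOC122049615 had 4.46, 3.08 and 4.10 FPKM against 98.9, 42.2 and 117 FPKM. LOC122030586, listed by the study with an AUX/IAA domain and left out by name, is aligned to LOC122027518, and its log2 fold change of 5.25 (standard error 0.56) stood beside 4.66 (standard error 0.57). The gene aligned to LOC122010984, LOC121979399, had at most 0.219 FPKM in any sample and too few counts for the test.

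**Figure D3:**
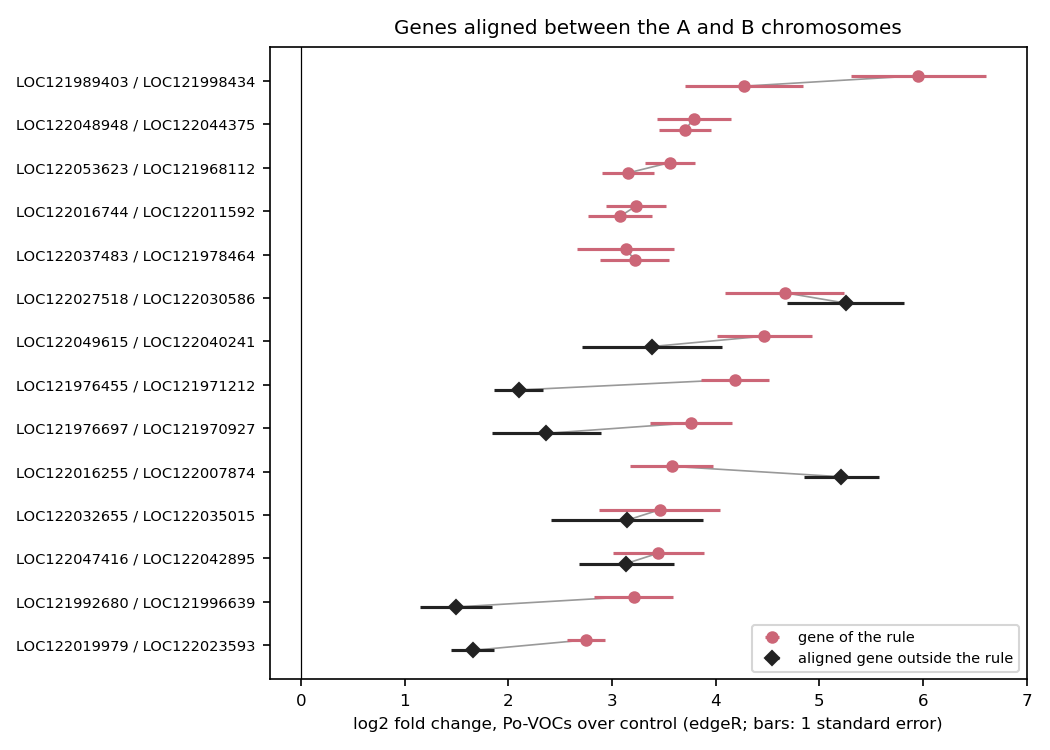
Fitted log2 fold change (edgeR, bars of 1 standard error) of genes aligned between the A and B chromosomes, with red circles for the 38 genes and black diamonds for aligned genes outside the rule. The 5 upper rows hold pairs of members, and in the 9 lower rows the aligned genes lie between 1.50 and 5.25, all above 0.

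Of the genes left out by name, LOC121984891 on chromosome 5B has the same product name as LOC121979802 on chromosome 5A, cytokinin dehydrogenase 5-like, with 1.17, 7.05 and 2.18 FPKM in control and 90.3, 45.6 and 47.4 FPKM in exposed samples. In both cytokinin dehydrogenase genes control replicate 2 and Po-VOCs replicate 1 were the highest of their groups.

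In the 38 genes the control samples spread more than the exposed samples by the median ratio. The highest control sample was a median of 2.26 times the lowest, and the highest exposed sample a median of 1.64 times the lowest. Both ranges are of values that the rule used. The control values also rest on fewer counts, a median of 126.5 per gene over the control samples against 1622 over the exposed samples. The cause of the difference in spread was not tested. Control replicate 1 was the lowest control sample in 28 of the 38 genes. It was lowest in 34.5% of 10443 other genes that met the same minimum levels and in 41.0% of all genes tested. With FPKM scaled by the TMM factors of the libraries, it was lowest in 25 of the 38. The FPKM of the 38 genes summed to 93.9 in control replicate 1 and to 204 and 191 in control replicates 2 and 3. Without control replicate 1 the median log2 fold change of the 38 genes was 3.38 in place of 3.55.

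Among the exposed samples, replicate 1 was the highest in 19 genes, replicate 2 in 8 and replicate 3 in 11. This order depends on the scaling, since TMM-scaled FPKM gave 12, 9 and 17. A clearer division was seen in 6 genes in which Po-VOCs replicate 3 had over 2 times the level of Po-VOCs replicate 1. These were LOC121997919, LOC121989403, LOC121998434, LOC121978179, LOC121998720 and LOC121988974, with ratios of 4.86, 3.63, 3.61, 3.39, 2.47 and 2.23. In all 6, Po-VOCs replicate 1 was the lowest exposed sample. They include the ERF003-like transcription factor, the BOI-related ubiquitin ligase and an aligned pair. The opposite was seen in 1 gene, LOC122045850, with a ratio of 2.08 of replicate 1 to replicate 3. This division was noticed in the values and was not tested, and the share of such genes among other genes was not worked out.

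**Figure D4:**
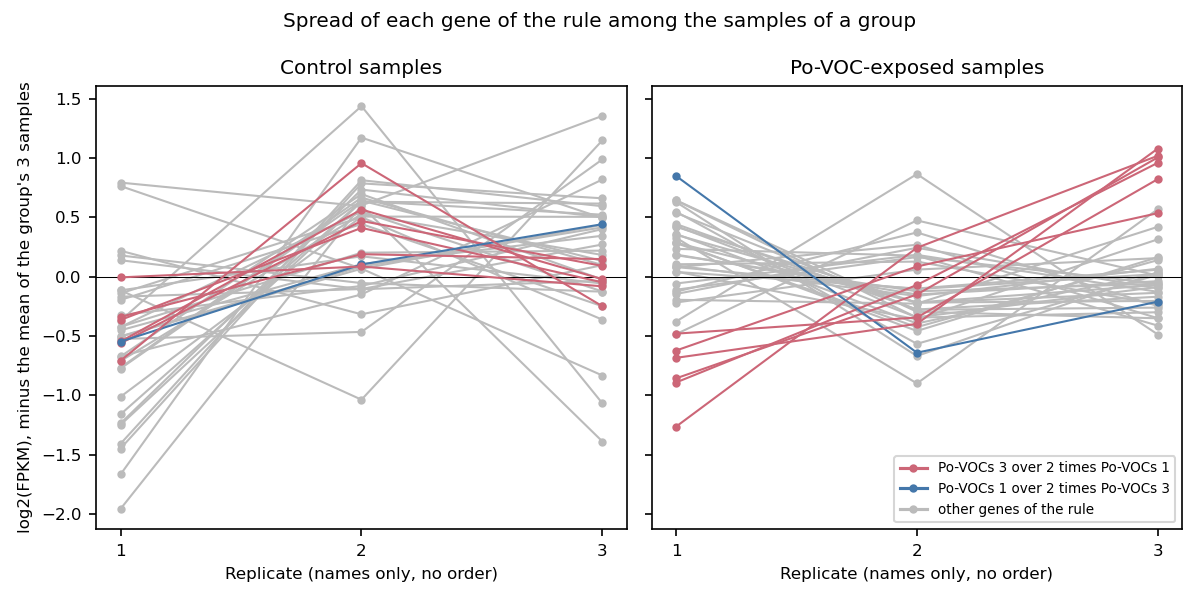
Log2 FPKM of each of the 38 genes (lines) in each sample, as the difference from the mean of its group, for control samples (left) and exposed samples (right); lines only link values of a gene. Control replicate 1 is lowest in 28 genes, and the 6 genes in red have over 2 times the level of Po-VOCs replicate 1 in Po-VOCs replicate 3.

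The rule used neither gene structure nor position. The 38 genes had a median annotated span of 1400 bases, against 3857 bases for the 10443 other genes at the same minimum levels, while the length behind the FPKM values differed less, with medians of 1196 and 1358 bases. A single protein was annotated for 31 of the 38 genes, or 81.6%, against 71.6% of the others. These shares and medians are descriptions, and gene length bears on the number of counts behind an FPKM value. The genes lay on 16 of the lettered chromosomes, with 16 genes on A and 21 on B chromosomes, and 8 of them on 1B. No 2 of the 38 were closer than 1027745 bases.

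Of the nearest protein-coding genes on either side of the members, 49 were tested and edgeR called 4 upregulated, 8.16% against 1.09% of all genes, with a median log2 fold change of 0.18 over the 49. The 4 were chosen for mention after their values were seen. LOC122035087, next to LOC122034938, is likewise named expansin-A4-like and rose from 1.01 to 12.8 FPKM on average, and reads shared between such neighboring copies cannot be assigned with certainty. LOC121978699 (vascular-related unknown protein 1-like), next to LOC122046016, rose from 0.865 to 11.3 FPKM, LOC121978485 (EG45-like domain containing protein), next to LOC121978464, from 3.51 to 12.6 FPKM, and LOC122056057, next to LOC121968112, from 0.201 to 1.81 FPKM.

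Other genes of the same families could be followed only among 126 genes whose held product names contain the family words, and 14 of these are among the 38. The study lists them because it called them upregulated in these libraries, so their direction is not independent evidence. In edgeR 60 of the 120 tested were called upregulated, and the counts given per family are edgeR calls. DESeq2 called all 126, but the study made its own calls with DESeq2, so this was largely set in advance. Over all genes tested edgeR called 1.09% upregulated, but every gene on these lists had already been listed as upregulated. The edgeR share among all held names was not worked out, so the counts do not rank the families. Among genes named expansin 10 of 12 were called, with a median log2 fold change of 3.72, and among those named xyloglucan endotransglucosylase 4 of 9, with a median of 3.23. On chromosome 3B, LOC122056226, which has the same product name as the member LOC122051693, had 0.0619, 0.0607 and 0 FPKM in control samples and 6.15, 2.37 and 3.77 FPKM in exposed samples, so its control values were near 0. Of the genes with auxin in their name 17 of 46 were called. The indole-3-acetic acid-amido synthetases, GH3 enzymes that tie excess auxin to amino acids, gave 6 calls of 8. None of these 8 is among the 38, and their exposed means reached at most 6.21 FPKM. Other genes of this name may be missing from the list or be among the 11 members without a held name. Cytokinin dehydrogenase genes gave 4 of 6 and ethylene-responsive transcription factors 7 of 21.

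Of the 10 genes listed for jasmonate-related words in their names edgeR called 4, the MYC2-like genes LOC122016255 and LOC122007874 and 2 genes named 23 kDa jasmonate-induced protein-like. The latter, LOC122030908 and LOC122031733, had means of 8.17 and 6.28 FPKM in exposed samples against 0.0906 and 0.260 FPKM in control samples. The other gene of that name, LOC122033442, had 0.499, 0.630 and 8.78 FPKM in control and 52.1, 52.5 and 45.0 FPKM in exposed samples, and was not called by edgeR. Control replicate 3 was thus far above the other control samples in that gene. DESeq2 called all 10 genes of the list, which comes from the study's own DESeq2 calls. The genes on it named lipoxygenase and 12-oxophytodienoate reductase were not called by edgeR, and whether they act in jasmonate synthesis was not checked. An example is LOC121992496 (putative 12-oxophytodienoate reductase 5), with 2.12, 4.47 and 2.37 FPKM against 6.74, 19.9 and 27.4 FPKM. The beta-fructofuranosidase, LURP-one-related and metal-nicotianamine transporter genes with held names, which need not be whole families, numbered 3, 3 and 2. All were called by edgeR. LOC121973135 on chromosome 4A had the highest control level of these LURP-one-related genes. It had 10.9, 11.1 and 14.2 FPKM in control samples against 59.7, 39.4 and 51.7 FPKM in exposed samples.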

How the data were processed

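RNA of 3 control and 3 Po-VOC-exposed leaf blade samples of ginger was analysed from the deposited tables, with groups and replicate numbers taken from the sample labels. The authors trimmed reads with Trimmomatic, mapped them to the assembly of another cultivar, Zhangliang (Zo_v1.1), with HISAT2 and counted them per RefSeq gene with HTSeq-count, and they deposited whole-number counts without normalization. The FPKM the authors deposited are attributed to Cufflinks, and all 299269 values above 0 equalled count divided by gene length and total count within 0.1%. For HTSeq-count, neither mode nor strand setting was found in the sources, nor were tool versions, and near-identical or overlapping genes are therefore uncertain.

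Counts were tested with edgeR 4.0.16 in R 4.3.3 (filterByExpr with a minimum count of 10 and total of 15, TMM, quasi-likelihood test, Benjamini-Hochberg over 41508 genes). Standard errors were derived from the F statistic as the size of the log2 change over root F. DESeq2 1.42.0 and limma 3.58.1 on log2 FPKM with pseudocounts of 1 and 0.1 served as alternatives, and the code was tested on simulated data. Counts on 3 samples against 3 limit precision to the spread among samples.

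The members, gene lists and thresholds were chosen with earlier results of these data known. Named genes are the members with a described function, grouped by role, the 3 members with the highest level among those without one, the 3 genes on either side of each threshold and, in place of protein relatives, the aligned genes. Other genes given with values, such as the member pairs, were chosen after their values were seen. The alignment of A and B chromosomes was added after the data had been seen. It paired genes whose spans differed by at most 0.1 in natural log ratio and that had at least 5 other pairs within 5 genes. Descriptions came from 1517 of the study's gene rows, all listed as upregulated, and 54082 rows were not used here. Protein relatives, promoter motifs and cell type markers had been planned and were not analysed here. No sequences are shown.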

Additional observations from a re-analysis of the deposited data

How the results depend on the processing

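The fitted log2 fold changes of the 38 genes stayed between 2.21 and 6.32 under every alternative run, none of 494 single-gene values reversed, and 8 moved by more than the spread among samples, all of them with limma on log2(FPKM + 1), which compresses low values. That setting gave a median of 3.20 in place of 3.55, and leaving out each library gave medians of 3.38 to 3.74. The number of the 38 genes called was 38 under DESeq2, other normalizations, no count filter and limma, and between 1 and 37 with a library left out. The replicate number as a block gave 19 calls of the 38, 3 of the aligned genes and 65 upregulated genes in all. The deviations of same-numbered samples from their group means had correlations of -0.02, 0.02 and -0.10, beside -0.21 to 0.18 for samples of different numbers. No label ties the numbers, so they were not used as pairs in the main fit. With 3 samples per group these correlations cannot show whether same-numbered samples were handled together. The rule itself gave 20 genes with a minimum of 20 FPKM in exposed samples, 73 with 3-fold, 21 with 6-fold, 41 with TMM-scaled FPKM (37 of them among the 38), and 48 to 117 with a library left out. Of the aligned genes outside the rule, DESeq2 called 9, the 5% limit on span differences gave 2, and leaving out a library gave 0 to 6, in place of 5. These alternatives for the aligned genes were chosen after seeing the data. DESeq2 called all 126 genes of the product lists, where edgeR called 60. The study had listed these genes from its own DESeq2 calls on these libraries, so the 126 was largely set by the listing. Except for the compression of low values, this listing and the smaller number of genes under the span limit, the cause was not tested. Depth limits the control values most, since the lowest control sample had a median of 25 counts per gene.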
